A study of Drosophila melanogaster with 6 samples.

Results

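Larval cells positive for a Gad1 reporter were compared with reporter-negative cells of the same tissue in the fruit fly Drosophila melanogaster. The reporter was dsRed1, a red fluorescent protein, fused directly to 2.1 kb of the Gad1 promoter, and cells were separated by fluorescence-activated sorting. LB_pos was 1 array of RNA from fluorescent cells of the larval central nervous system (brain and ventral nerve cord). LB_neg was 1 array of RNA from cells of that tissue without fluorescence. The whole series held 6 one-colour arrays, and the other 4, EC_pos a to d, came from the fluorescent fraction of cultured embryonic cells with the same reporter. They were used only as a guide to how far repeated arrays differ. All 13966 probe sets that were not controls were members of the comparison. The labels give no larval stage and no number of animals, and the reporter marks cells in which a promoter fragment was active, which need not be every cell that makes GABA.

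Gad1 encodes glutamic acid decarboxylase, the enzyme that makes GABA, the main inhibitory transmitter of the insect brain. The larval nervous system holds mature neurons that run the larva's behaviour, many immature neurons that wait for metamorphosis, dividing neuroblasts and their daughter cells, and glia. Neuroblasts change the transcription factors they express over time, and so give rise to different neurons in turn. Mature neurons are known for their ion channels, receptors, vesicle machinery and surface adhesion proteins.

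The deposited intensities were linear, in arbitrary units. A difference is log2(LB_pos + 53.6) minus log2(LB_neg + 53.6), so a positive value means a higher intensity on LB_pos. The offset of 53.6 was the 25th percentile over the 6 arrays. It understates the difference of dim probe sets, and an intensity below it has no reliable order. A probe set was counted when 1 or both larval intensities exceeded 197.35, the pooled median, which left 8059 of 13966. With 1 array a fraction there is no replicate check and no test, and no p-value is given. In these bulk samples, fewer cells of a type and less RNA per cell cannot be told apart.

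Several measures of the arrays differed between the fractions. The median intensity was 229.4 on LB_pos and 181.5 on LB_neg, and 79.2% of probe sets on LB_pos and 71.8% on LB_neg exceeded the offset. The geometric mean of 9 hybridization controls was 7382 on LB_pos and 2527 on LB_neg. The 3' to 5' ratio of the actin control was 58.3 on LB_pos and 29.5 on LB_neg, that of the eIF-4a control was 40.1 on LB_pos and 120.3 on LB_neg, and that of the GAPDH control was 8.90 on LB_pos and 19.5 on LB_neg. The part of these array differences in the results that follow was not tested.

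Gad1 itself was dim on all 6 arrays, with 54.8 on LB_pos and 22 on LB_neg and 22.2 to 39 on the EC_pos arrays. It was not counted, since neither larval intensity reached the pooled median, and its difference was 0.52. VGAT, which loads GABA into synaptic vesicles, read 738 on LB_pos and 739.7 on LB_neg. Gabat, the transaminase that breaks GABA down, read 1736 on LB_pos and 576 on LB_neg, a difference of 1.51. Of the 3 genes, the degrading enzyme was brighter on LB_pos, the transporter was level and the synthetic enzyme read close to the offset on LB_pos and under it on LB_neg.

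Neuronal and non-neuronal markers were present on both arrays. The summed intensity of 16 general neuron markers was 21438 on LB_pos and 19611 on LB_neg, against 12336 to 27322 on EC_pos, and 15 of them on LB_pos and 14 on LB_neg exceeded the offset. Of 12 counted neuron markers 7 had a difference above 0 and 5 below, with a median of 0.43. At least 1 log2 unit higher were 5 (41.7%, against 11.5% of all counted genes). Only 1 of these differed by more than the spread of the 4 EC_pos arrays. The 1 lower marker (8.33%, against 8.38%) was elav, the RNA-binding protein used to label neurons. elav read 1541 on LB_pos and 4939.9 on LB_neg (difference -1.65). The synaptic vesicle protein gene nSyb read 1127 on LB_pos and 463 on LB_neg (difference 1.19). For 32 glial markers the sums were 23440 on LB_pos and 21571 on LB_neg. repo, the transcription factor that defines most glia, read 155 on LB_pos and 331 on LB_neg, but most glial markers went the other way. Of 24 counted glial markers 18 had a difference above 0, with a median of 0.46. Among all counted genes 53.5% had a difference above 0. At least 1 log2 unit higher were 5 (20.8%, against 11.5% of all counted genes), and 1 was lower (4.17%, against 8.38%). The 20 hemocyte markers summed to 19231 on LB_pos and 16540 on LB_neg, the 21 muscle markers to 6937 on LB_pos and 7947 on LB_neg, and the 23 fat body markers to 20550 on LB_pos and 14846 on LB_neg. Markers of trachea, epidermis and chitin differed more, with a sum over 32 genes of 13803 on LB_pos and 6074 on LB_neg. The lists are not free of overlap with neurons, since Ddc, the largest difference in the tracheal and epidermal list, also makes dopamine and serotonin.

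Across the counted probe sets, 1005 (12.5%) were at least 1 log2 unit higher on LB_pos and 656 (8.14%) at least 1 log2 unit lower. At 2 log2 units there were 193 higher (2.39%) and 50 lower (0.62%). Together 1661 probe sets (20.6%) differed by at least 1 log2 unit. Between EC_pos arrays b, c and d, taken in pairs, the same count was 560 to 1100 (7.32% to 14.2%), but pairs that included EC_pos a gave 3512 to 4263 (43.6% to 50.9%). The larval pair was thus further apart than the 3 similar culture arrays were from each other. It was closer than each of them was to array a. EC_pos a also had high 3' to 5' ratios, with 147.6 for the actin control, 640.3 for eIF-4a and 865.8 for GAPDH. On EC_pos b to d they were 19.5 to 72.5, 18.7 to 46.3 and 15.3 to 42.4. The part of these ratios in the distance of array a was not tested. The balance of the directions depended on scaling: quantile normalization gave 731 higher and 814 lower, and a common median gave 601 higher and 1297 lower. A common median moved the median difference of all counted genes to -0.28, against 0.06 as deposited and -0.03 after quantile normalization.

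**Figure D1:**
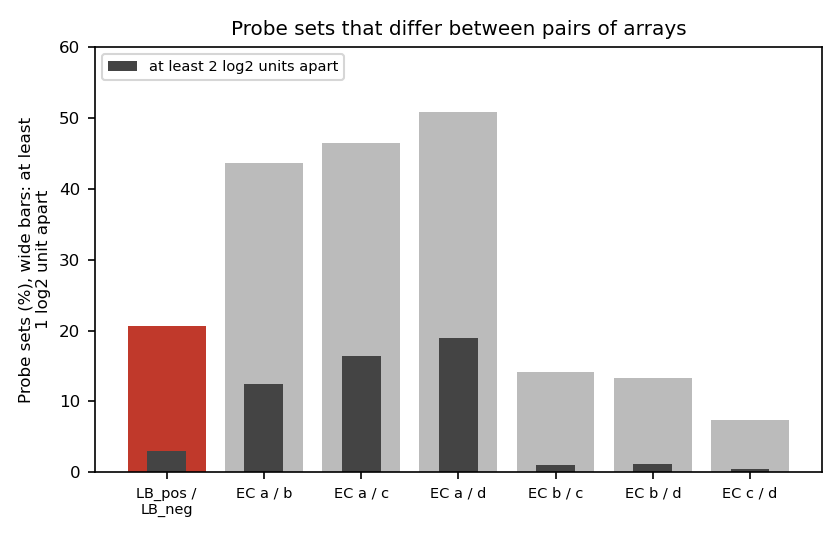
Share of counted probe sets (%) at least 1 log2 unit apart (wide bars) and at least 2 log2 units apart (narrow dark bars) for LB_pos against LB_neg (red) and for each pair of EC_pos arrays (grey). The larval pair stands at 20.6%, the EC_pos pairs without array a at 7.32% to 14.2% and the pairs with array a at 43.6% to 50.9%.

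Of 10825 genes with 1 name, 6608 were counted, each by its brightest probe set on average over all arrays. Among them 762 (11.5%) were at least 1 log2 unit higher on LB_pos and 554 (8.38%) at least 1 log2 unit lower. A difference larger than the range of the 4 EC_pos arrays was seen for 767 higher genes (11.6%) and 562 lower genes (8.5%). That range is set in large part by EC_pos a: without it the counts were 1587 higher and 1381 lower. Both conditions held for 470 higher genes (7.11%) and 275 lower genes (4.16%). Without the filter, 1162 of the 10825 genes (10.7%) were at least 1 log2 unit higher and 640 (5.91%) lower. Probe sets of the same gene often disagreed. Of 424 genes with several counted probe sets, 189 had at least 1 that differed by 1 log2 unit or more. In 27 of those all counted probe sets did so in the same direction, and in 8 they did so in opposite directions. The value given for a gene is that of its brightest probe set, and other counted probe sets are given beside it.

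**Figure D2:**
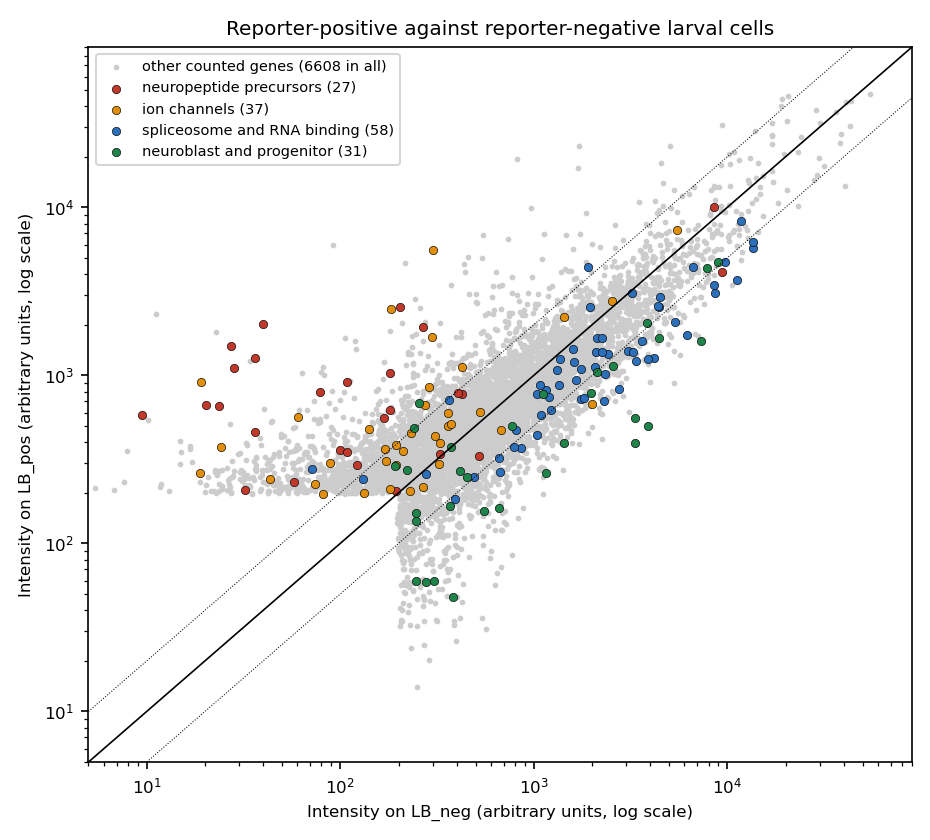
Intensity of each of 6608 counted genes on LB_pos (vertical, log scale, arbitrary units) against LB_neg (horizontal, log scale). The solid line marks equal intensity and the dotted lines a plain ratio of 2 either way. Neuropeptide precursors and ion channels lie mostly above the line, and spliceosome and neuroblast genes mostly below it.

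Several gene families that serve excitability and signalling had medians above that of all genes, and families that serve nuclear RNA processing and cell division had medians below it. A family is described by the number of its counted members at least 1 log2 unit higher or lower and by its median difference. These are to be read against 11.5%, 8.38% and the median of 0.06 over all counted genes. Counts of members above or below 0 are to be read against 53.5% of all counted genes above 0. Of 59 gene lists, 13 had a median at least 0.5 log2 units above that of all genes and 5 at least 0.5 below, and with the offset at the 50th percentile 4 did so above and 2 below. The 13 also held lists of other kinds: the tracheal and epidermal markers, immune genes, sugar metabolism, cytochrome P450 and UDP-glycosyltransferase genes (5 of 28 at least 1 log2 unit higher, 1 lower, median 0.57) and odorant binding and chemosensory genes (8 of 37 higher, 1 lower, median 0.61). Over all members on the array these medians were 0.36 for the P450 list and 0.21 for the chemosensory list. A gene passes the filter through its brighter array, so the median over all members on the array is given as well for the main families, to be read against 0.14 over all 10825 genes. With no filter 2 lists stood 0.5 above all genes, and with the filter on all 6 arrays 7 did. Under quantile normalization and a common median, the medians of all families called higher or lower below stayed on the same side of that of all genes. Their own signs were also kept. That is a weaker check for the lower families, because both scalings moved the median of all genes downward.

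**Figure D3:**
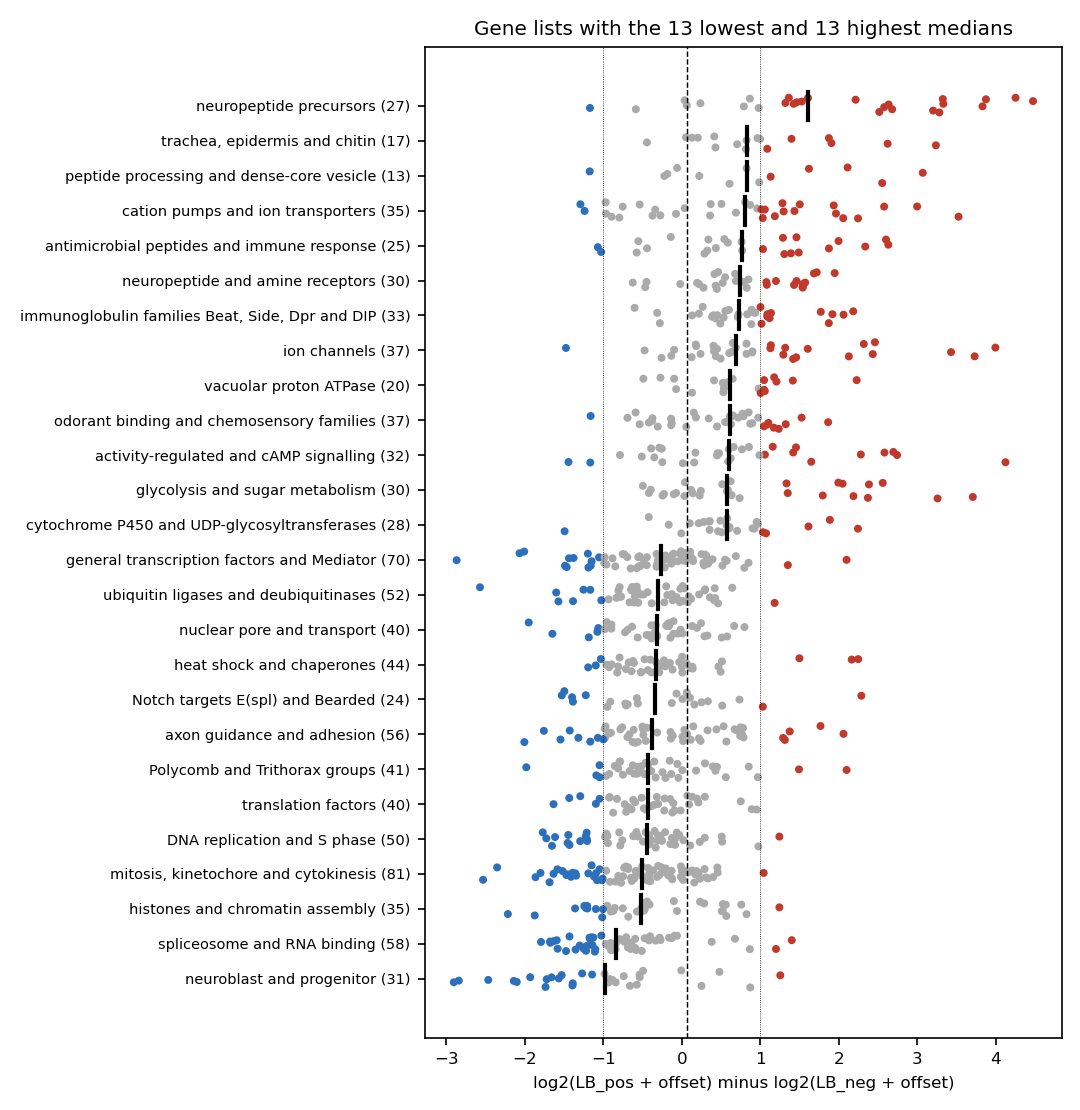
Difference between LB_pos and LB_neg (log2 units) of the counted members of the 13 lists with the highest and the 13 with the lowest medians among lists with at least 10 counted members (number in brackets). Points in red are at least 1 log2 unit higher on LB_pos, points in blue at least 1 lower, thick bars are medians and the dashed line is the median of all counted genes. Neuropeptide precursors (1.61) stand at the top and neuroblast and progenitor genes (-0.98) at the bottom.

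Ion channels were among the families higher on LB_pos. Of 37 counted channel genes 14 were at least 1 log2 unit higher, 10 of them beyond the EC_pos range, and 1 was lower. The median was 0.69 among counted members and 0.55 among all 67 on the array. RyR, the ryanodine receptor that releases calcium from the endoplasmic reticulum, read 912 on LB_pos and 19.1 on LB_neg, a difference of 3.73, with 345 to 710.2 on EC_pos. Ca-alpha1D, an L-type calcium channel, read 1698 on LB_pos and 298 on LB_neg (difference 2.32), and Cngl, related to cyclic nucleotide-gated channels, read 375 on LB_pos and 24.3 on LB_neg (difference 2.46, with 0.08 for a dimmer probe set). The lower one was ClC-b, a chloride channel, with 679.8 on LB_pos and 1987 on LB_neg and a difference of -1.48.

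Parts of the sodium leak channel complex, which sets resting excitability, were higher together. unc79 read 2489 on LB_pos and 182 on LB_neg (difference 3.43) against 438 to 739 on EC_pos. unc80 read 564 on LB_pos and 60.7 on LB_neg (difference 2.43), and Mid1 read 1170.3 on LB_pos and 388 on LB_neg (difference 1.47, with 0.87 for its other counted probe set). The pore subunit na stayed below the pooled median, with 86.8 on LB_pos and 44 on LB_neg. The accessory genes were thus clearly brighter on LB_pos while the pore gene was too dim to count. These 4 genes were grouped after their values were seen.

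Calcium handling genes, also grouped after their values were seen, lay on both sides, with 8 of 14 counted members above 0 and 6 below. At least 1 log2 unit higher were 6 (42.9%) and 2 were lower (14.3%). The median was 0.75 among counted members and 0.60 among all 17 on the array. Nckx30C, a sodium-dependent exchanger of calcium and potassium, read 6859.5 on LB_pos and 547 on LB_neg (difference 3.53), and its other probe set differed by 1.56. Cbp53E, a calbindin-like calcium buffer, read 2068 on LB_pos and 274 on LB_neg (difference 2.70). Frq1, a frequenin that tunes transmitter release, read 3426 on LB_pos and 662 on LB_neg (difference 2.28), and CanB, a regulatory subunit of calcineurin, read 1837 on LB_pos and 549 on LB_neg (difference 1.65). PMCA, a pump of the plasma membrane, read 651 on LB_pos and 1673 on LB_neg (difference -1.29). SPoCk, a pump of the secretory pathway, differed by -1.24 in its representative probe set but by 2.56 in another. Neither of these lower values exceeded the EC_pos range.

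Ion transporters had 15 of 35 counted members at least 1 log2 unit higher and 2 lower, with a median of 0.81 (0.51 over all 49). Ndae1, a sodium-dependent anion exchanger, read 2049 on LB_pos and 209.5 on LB_neg, and it also stands in the glial list. kcc, the potassium and chloride cotransporter that keeps neuronal chloride low and so shapes the response to GABA, read 549.5 on LB_pos and 73.6 on LB_neg (difference 2.25), but its other probe set differed by 0.15. ine, a transporter of the family that takes up small transmitters, read 272 on LB_pos and 24.6 on LB_neg (difference 2.06).

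The vacuolar proton ATPase acidifies vesicles and lysosomes and supplies the gradient that fills synaptic vesicles. Of its 20 counted subunits 8 were at least 1 log2 unit higher and none lower, with a median of 0.62, and 4 of the 8 exceeded the EC_pos range. Vha13 read 3403 on LB_pos and 1243 on LB_neg (difference 1.41) and Vha16-4 read 428 on LB_pos and 49.3 on LB_neg (difference 2.23). By contrast Vha55, a catalytic-sector subunit, read 214 on LB_pos and 228 on LB_neg, so not every subunit was higher.

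**Figure D4:**
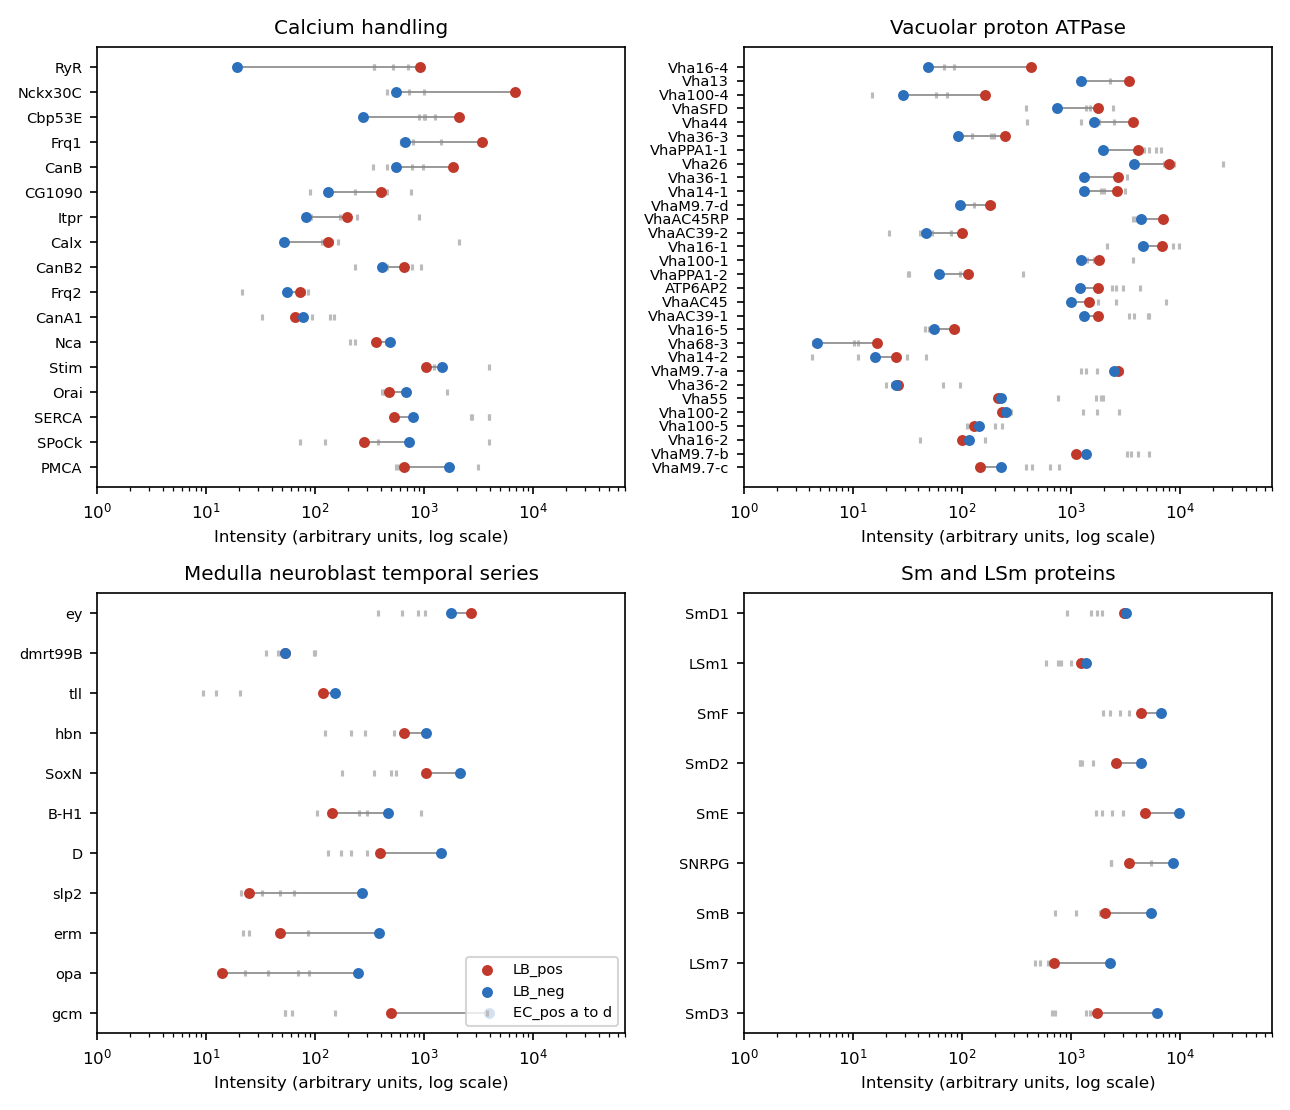
Intensity (log scale, arbitrary units) of each member of 4 families on LB_pos (red), LB_neg (blue) and the 4 EC_pos arrays (grey ticks), sorted by the difference between LB_pos and LB_neg. Calcium handling genes lie on both sides, and most proton ATPase subunits lie to the right on LB_pos. All 9 Sm and LSm genes and most medulla temporal factors lie to the right on LB_neg. All of these groups but the proton ATPase were put together after their values were seen.

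Receptors for neuropeptides and amines were higher on LB_pos in 12 of 30 counted genes and lower in none, with a median of 0.74 (0.52 over all 47). Dop1R1, a dopamine receptor, read 419 on LB_pos and 89.9 on LB_neg (difference 1.72). Octbeta1R, an octopamine receptor, read 462 on LB_pos and 107 on LB_neg (difference 1.68), and 5-HT2A, a serotonin receptor, read 752 on LB_pos and 218 on LB_neg (difference 1.57). DopEcR, which responds to both dopamine and ecdysone, read 526 on LB_pos and 146 on LB_neg (difference 1.54). Of the 12 receptors 8 exceeded the EC_pos range.

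Neuropeptide precursors had the highest median of the 59 lists, with 19 of 27 counted precursors at least 1 log2 unit higher, a median of 1.61, and 16 beyond the EC_pos range. Their processing enzymes differed in the same direction in part. Pal2, which completes peptide amidation, read 4109 on LB_pos and 442 on LB_neg (difference 3.07). QC, a glutaminyl cyclase that caps peptides with pyroglutamate, read 356 on LB_pos and 7.9 on LB_neg (difference 2.74), and isoQC read 703 on LB_pos and 425 on LB_neg (difference 0.66). IA-2, a protein of dense-core vesicles, read 620.1 on LB_pos and 61.2 on LB_neg (difference 2.55). 7B2, the chaperone of the convertase amon, differed by 2.11 in its representative probe set and by 0.42 in another. Nep1, a neprilysin that degrades peptides outside the cell, read 1054 on LB_pos and 79.1 on LB_neg (difference 3.06), with 1.14 for its other counted probe set. The other neprilysins were mostly too dim to count, 6 of 25 being counted.

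The Beat, Side, Dpr and DIP proteins are immunoglobulin-domain surface proteins with which neurons recognise partners. Of 33 counted members 11 were at least 1 log2 unit higher on LB_pos and none lower, with a median of 0.72 (0.52 over all 49). The count includes dpr3, whose difference of 1.02 comes from a probe set that reads 20780.4 on LB_pos and 10250.9 on LB_neg and whose gene assignment is uncertain. dpr5 read 1364 on LB_pos and 258 on LB_neg (difference 2.18). dpr11 read 358 on LB_pos and 58.8 on LB_neg (difference 1.87), and its other probe sets differed by 2.27 and 1.02. side, an attractant for motor axons, read 807 on LB_pos and 153 on LB_neg (difference 2.06, with 0.87, 0.85 and 0.57 for its other counted probe sets), and DIP-beta read 244 on LB_pos and 33.6 on LB_neg (difference 1.77). Genes of classical axon guidance and adhesion had a median below that of all genes, with 8 of 56 at least 1 log2 unit lower, 5 higher and a median of -0.38 (-0.14 over all 66). This list also holds side, its highest member. Lac, a septate junction immunoglobulin protein, read 1717 on LB_pos and 7062 on LB_neg (difference -2.01), and unc-5, a netrin receptor, read 285 on LB_pos and 1090.4 on LB_neg (difference -1.76), but its other 2 probe sets, too dim to count, differed by -0.03 and 0.09.

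Genes known to be switched on by neuronal activity, together with cAMP signalling genes, had 10 of 32 counted members at least 1 log2 unit higher and 2 lower (median 0.59). The higher ones include rut (difference 1.16), whose very bright probe set has an uncertain gene assignment. Its other counted probe set read 718.6 on LB_pos and 161.6 on LB_neg (difference 1.84). sr, the fly Egr transcription factor, read 4647 on LB_pos and 216 on LB_neg (difference 4.12), with 1307 to 4056 on EC_pos. Hr38, the fly NR4A nuclear receptor, read 404 on LB_pos and 14.8 on LB_neg (difference 2.74), and CG14186 read 3040.4 on LB_pos and 463 on LB_neg (difference 2.58). kay, the fly Fos, read 555 on LB_pos and 673 on LB_neg (difference -0.26), but 0.84 in a dimmer probe set. puc, a target of Jun kinase signalling, read 7332 on LB_pos and 12698 on LB_neg. Among clock genes 4 of 16 were at least 1 log2 unit higher and 1 lower, with a median of 0.21. Under a common median it was -0.08, while that of all counted genes was -0.28. The clock median thus stood 0.21 above that of all genes under a common median and 0.15 above it as deposited. vri, a repressor in the clock loop, read 6939.9 on LB_pos and 1737 on LB_neg (difference 1.97), per read 244 on LB_pos and 27 on LB_neg (difference 1.88), and the activator cyc read 833 on LB_pos and 884 on LB_neg.

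Sugar metabolism was higher on LB_pos without a matching difference in mitochondrial energy genes. The sugar list had 11 of 30 counted members at least 1 log2 unit higher, none lower and a median of 0.58. Beyond the enzymes of the glycolytic trunk these included Glyp, glycogen phosphorylase, with 1609 on LB_pos and 268 on LB_neg (difference 2.37). Pgm1, which links glycogen to glycolysis, read 1512 on LB_pos and 325 on LB_neg (difference 2.05), and Pepck1, a gluconeogenic enzyme, read 1298 on LB_pos and 286 on LB_neg (difference 1.99). The respiratory chain had 1 of 63 higher, none lower and a median of 0.10. The tricarboxylic acid cycle had 2 of 24 higher and a median of 0.11, so both lay near the median of all genes. The difference between these lists was not tested.

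Immune genes had 11 of 25 counted members at least 1 log2 unit higher and 2 lower, with a median of 0.76 (0.43 over all 49). PGRP-SC2, a peptidoglycan-degrading protein, read 1725 on LB_pos and 234 on LB_neg (difference 2.63), and CecB, a cecropin, read 1764 on LB_pos and 246 on LB_neg (difference 2.60). spz, the ligand of the Toll receptor, read 2436 on LB_pos and 625 on LB_neg (difference 1.87), whereas the receptor gene Tl read 387 on LB_pos and 871 on LB_neg (difference -1.07). Among 5 counted lysozymes LysX was the exception, with 1819.9 on LB_pos and 22.8 on LB_neg (difference 4.62), while the other 4 differed by -0.16 (LysS) to 0.36 (LysD). Of 15 counted hemocyte markers 2 were at least 1 log2 unit higher and 4 lower, and of 11 salivary gland and gut markers, a list that also holds LysX, 4 were higher and none lower. The gland and gut list summed to 9337 on LB_pos and 6132 on LB_neg. The part of either cell type in the immune genes was not tested.

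Several of the genes that differed most lay outside these families. CG4577 read 5961 on LB_pos and 91.9 on LB_neg (difference 5.37) and CG12239 read 2320.2 on LB_pos and 11.2 on LB_neg (difference 5.20), the 2 largest of all. Both are named only by number here. TM4SF, a tetraspanin, read 9843 on LB_pos and 971 on LB_neg (difference 3.27). Of 22 counted tetraspanins 3 were at least 1 log2 unit higher (13.6%, against 11.5% of all counted genes). St3, a sulfotransferase, read 1664 on LB_pos and 106 on LB_neg (difference 3.43, with 0.87 for a dimmer probe set). Oatp74D, which imports the steroid hormone ecdysone, was just below these 30, with 3429 on LB_pos and 374 on LB_neg (difference 3.03).

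**Figure D5:**
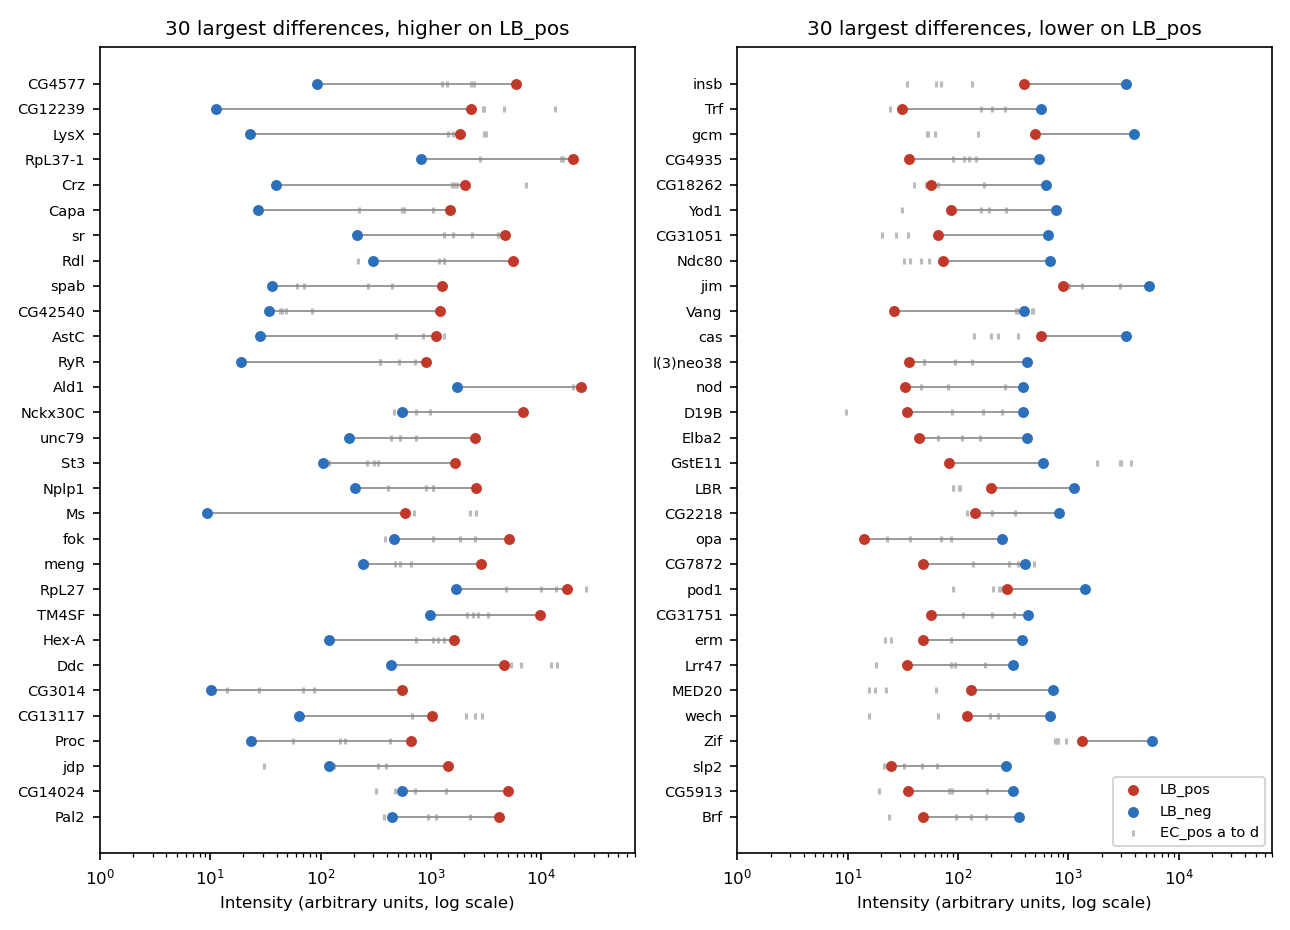
Intensity (log scale, arbitrary units) on LB_pos (red), LB_neg (blue) and the 4 EC_pos arrays (grey ticks) of the 30 genes furthest apart in either direction, taken from genes whose difference exceeded the EC_pos range. The differences run to 5.37 higher and -2.91 lower, and many genes on the right are near or below the offset of 53.6 on LB_pos.

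Splicing genes were lower on LB_pos almost throughout. Of 58 genes, all of them counted, 22 were at least 1 log2 unit lower on LB_pos and 2 higher, 53 lay below 0 and the median was -0.83. Of the 22 lower genes, 15 exceeded the EC_pos range. The Sm and LSm proteins form the ring at the core of the small nuclear ribonucleoproteins. SmD3 read 1739 on LB_pos and 6163 on LB_neg (difference -1.79), SmB read 2078 on LB_pos and 5396 on LB_neg (difference -1.35), and SmD1 read 3094 on LB_pos and 3231 on LB_neg. SF2, an SR-type splicing regulator, read 1275 on LB_pos and 4189 on LB_neg (difference -1.68), and Hrb98DE, an hnRNP protein, read 3711 on LB_pos and 11224 on LB_neg (difference -1.58). tsu, a core subunit of the exon junction complex, read 1247 on LB_pos and 3873 on LB_neg (difference -1.59). All of these read above the pooled median on both arrays.

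Neuroblast and progenitor genes had the lowest median of the 59 lists, -0.98 among 31 counted members and -0.84 among all 39. At least 1 log2 unit lower on LB_pos were 15, of which 10 exceeded the EC_pos range, and 1 was higher. The summed intensity of the list was 25186 on LB_pos and 60273 on LB_neg, against 10748 to 13279 on EC_pos. insb, a nuclear repressor in neural precursors, read 398 on LB_pos and 3329.9 on LB_neg (difference -2.91), and cas, a late temporal factor of embryonic neuroblasts, read 559 on LB_pos and 3332 on LB_neg (difference -2.47). ase, the proneural factor of neuroblasts, read 60 on LB_pos and 305 on LB_neg (difference -1.66). dpn, another neuroblast factor, read 272 on LB_pos and 220.1 on LB_neg, and Imp, the RNA-binding protein of young neuroblasts, was the higher one with 681 on LB_pos and 254 on LB_neg (difference 1.25).

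Factors that medulla neuroblasts of the optic lobe express in turn were low together, a group put together after its values were seen. Of 9 counted genes 6 were at least 1 log2 unit lower and none higher. opa read 13.9 on LB_pos and 249 on LB_neg (difference -2.16), erm read 47.8 on LB_pos and 382 on LB_neg (difference -2.10), and slp2 read 24.9 on LB_pos and 271 on LB_neg (difference -2.05). D, a Sox factor late in the series, read 393 on LB_pos and 1436 on LB_neg (difference -1.74), and gcm, which specifies lamina neurons and glia, read 499.9 on LB_pos and 3914 on LB_neg (difference -2.84). The exception was ey, with 2694 on LB_pos and 1772 on LB_neg. Markers of the optic lobe and eye as a whole summed to 12541 on LB_pos and 12121 on LB_neg over 34 genes.

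Other transcription factors stood on both sides. Of 87 counted bHLH and zinc finger neural factors 9 were at least 1 log2 unit higher and 20 lower. Of 36 Hox and homeodomain factors 4 were higher and 6 lower. zfh1, a factor of motor neurons and other cells, read 425 on LB_pos and 38.6 on LB_neg (difference 2.38), and tsh, a factor of the trunk, read 733 on LB_pos and 117 on LB_neg (difference 2.20). On the lower side al read 87.3 on LB_pos and 346 on LB_neg (difference -1.50), and pdm3 read 64.7 on LB_pos and 404 on LB_neg (difference -1.95) with -1.70 for its other probe set. Zif, a zinc finger factor needed for neuroblast polarity, read 1324 on LB_pos and 5671 on LB_neg (difference -2.05). jim read 899 on LB_pos and 5334 on LB_neg in the probe set that stands among the 30, but its other probe set differed by 1.00 in the opposite direction.

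Cell division genes were lower on LB_pos. The mitosis list had 22 of 81 counted members at least 1 log2 unit lower, 1 higher and a median of -0.51. Ndc80, the microtubule-binding part of the kinetochore, read 72.5 on LB_pos and 676 on LB_neg (difference -2.53), and its partner Nuf2 read 151 on LB_pos and 583 on LB_neg (difference -1.64). fzy, an activator of the anaphase-promoting complex, read 321 on LB_pos and 1310 on LB_neg (difference -1.86). The replication list had 12 of 50 lower, 1 higher and a median of -0.44. PolD2, a subunit of DNA polymerase delta, read 329.7 on LB_pos and 1256 on LB_neg (difference -1.77), and PolE2, a subunit of DNA polymerase epsilon, read 70.7 on LB_pos and 358 on LB_neg (difference -1.73). Caf1-180, a histone chaperone subunit, was the higher one with 366 on LB_pos and 124 on LB_neg (difference 1.24).

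Chromatin and transcription lists also had medians below that of all genes. Histone and chromatin assembly genes had 10 of 35 at least 1 log2 unit lower, 1 higher and a median of -0.52. LBR, the lamin B receptor of the inner nuclear membrane, read 198 on LB_pos and 1116 on LB_neg (difference -2.22), and HP1c, a heterochromatin protein 1 family member, read 754 on LB_pos and 2906 on LB_neg (difference -1.87). Polycomb and Trithorax genes had 4 of 41 lower, a share close to that of all genes, but a median of -0.43. Among general transcription factors 12 of 70 were lower (median -0.27). MED20, a Mediator subunit, read 131 on LB_pos and 719 on LB_neg (difference -2.07).

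RNA polymerase III, which makes transfer RNA, showed an uneven pattern. Trf, the TBP-related factor that works with Brf at its promoters in flies, read 30.9 on LB_pos and 564 on LB_neg (difference -2.87), Brf read 48.6 on LB_pos and 358 on LB_neg (difference -2.01, with a second, dim probe set level), and the large subunit gene Polr3A read 73.6 on LB_pos and 327 on LB_neg (difference -1.58). The other 5 counted genes differed by -0.71 (Polr3B) to -0.13 (Polr3F), so the lower intensity was marked in 3 of 8. These genes were grouped after their values were seen, and Trf and Brf were under the offset on LB_pos. Translation factors had 5 of 40 lower and none higher (median -0.43), and nuclear pore genes 5 of 40 lower and none higher (median -0.32). eEF1delta, an elongation factor subunit, read 2085 on LB_pos and 5727 on LB_neg (difference -1.43), and Nup43 read 454 on LB_pos and 1908 on LB_neg (difference -1.95).

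Notch target genes and related genes were mixed. Of 24 genes 5 were at least 1 log2 unit lower on LB_pos and 2 higher. The lower ones include H (difference -1.39, with -1.02 for its other counted probe set), which is not of the E(spl) or Bearded families and did not exceed the EC_pos range. The repressor genes E(spl)m5-HLH and E(spl)m7-HLH were lower, with 202 on LB_pos and 684 on LB_neg for m5 and 2362 on LB_pos and 5589.8 on LB_neg for m7. Sidpn, a relative of deadpan, was higher with 9259 on LB_pos and 1854 on LB_neg (difference 2.29). Planar polarity, junction and Hippo pathway genes, grouped after their values were seen, lay on both sides, with 5 of 10 counted members above 0 and 5 below. At least 1 log2 unit lower were 5, and 1 was higher (median -0.49). Among the lower ones Vang, a core planar polarity protein, read 26.2 on LB_pos and 395 on LB_neg (difference -2.49), with 333 to 475 on EC_pos. stan, its partner cadherin, read 306 on LB_pos and 914 on LB_neg (difference -1.43), and alpha-Cat, which joins cadherins to actin, read 2077 on LB_pos and 4842 on LB_neg (difference -1.20).

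Several large families, most of them housekeeping, had medians close to that of all genes. The proteasome list had 2 of 35 at least 1 log2 unit lower and none higher (median -0.17). Mitochondrial ribosomal proteins had 2 of 64 higher and 3 lower (median 0.05). Synaptic vesicle and active zone genes had 3 of 38 higher and 3 lower (median 0.20). Rim, an active zone scaffold, read 2081 on LB_pos and 733 on LB_neg (difference 1.44), with 1.88 and 0.72 for its other probe sets, whereas Liprin-alpha read 170.2 on LB_pos and 479.7 on LB_neg (difference -1.25). Cytosolic ribosomal proteins had a median of 0.08, yet 7 of 32 were at least 1 log2 unit higher and 2 lower. The higher share was 21.9%, against 11.5% of all counted genes. RpL37-1 read 19465 on LB_pos and 821 on LB_neg (difference 4.48) and RpL27 read 17099 on LB_pos and 1694 on LB_neg (difference 3.29). On EC_pos array a RpL37-1 read 2759, against 15164 to 20687 on arrays b to d.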

How the data were processed

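Total RNA from sorted cells was measured on 6 one-colour arrays, 1 each of LB_pos and LB_neg and 4 of EC_pos, grouped by the sample labels. The authors deposited 1 linear intensity per probe set and array. The software behind them is not given in the sources used here, nor is a genome build. After trimming 2% of probe sets at each end, the mean was 500.06 to 500.08 on every array, so the values were already scaled and were used as deposited. The 44 control probe sets were left out. Arrays have no depth, and their number limits the precision.

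Differences, the offset and the filter are as given above, computed with Python 3.11.15, numpy 2.4.6, pandas 2.3.3 and scipy 1.17.1, and were tested on simulated data. Names came from the platform's annotation, updated through RefSeq gene identifiers (Release 6 assembly), which gave 12442 probe sets with 1 gene, 327 with several and 1197 with none. Probe sets with several genes or none were left unnamed. Named genes were the 30 furthest apart in either direction, taken from counted genes beyond the EC_pos range, the 6 largest of each list, cell type markers, Gad1 and further members that show a family whole. The 59 lists were chosen with earlier results of these data known. A further 13, not among the 59, were put together after the values here were seen. They include the Sm and LSm, neprilysin, glutaminyl cyclase and epsilon glutathione transferase groups. Genes matched to a list by symbol alone were removed from it afterwards where they did not belong. The alternatives were other offsets, a floor, other scalings, other filters, the mean of a gene's probe sets and leaving out each EC_pos array.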

Additional observations from a re-analysis of the deposited data

Results flagged for a closer look

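Of 66 measures examined over the 4 EC_pos arrays (the named genes with the largest differences and values of the arrays as a whole), 7 had 1 array far from the other 3. Chance does so in about 1 in 20 groups. The gap to the nearest array as a share of the whole range was 0.943 for Ald1, 0.94 for Crz, 0.939 for Rdl, 0.874 for gcm, 0.845 for RpL37-1, 0.844 for Nplp1 and 0.833 for CG42540. EC_pos a was the low array for Ald1 (1753.3, against 19517 to 22575 on b to d), for Rdl (217.9, against 1192 to 1322), for RpL37-1 (2759, against 15164 to 20687) and for Nplp1 (410.9, against 901.2 to 1037). It was the high array for gcm (150.6, against 52.7 to 61.8). EC_pos b was the high array for Crz (7349, against 1558 to 1712 on the others) and for CG42540 (83.2, against 42.7 to 48.5). Array a also stood apart over all probe sets, and its range is part of the guide to spread used for the larval differences.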

How the results depend on the processing

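No gene among those with the largest differences changed sign under the alternatives run, nor did a list whose median lay at least 0.5 from that of all genes. For the genes this is a weak check. Another offset, a floor or another filter cannot reverse the order of a gene's larval intensities, and the genes were picked for large differences. As deposited, 1005 probe sets were at least 1 log2 unit higher and 656 lower, 193 and 50 at 2 log2 units, and 13 lists were higher and 5 lower. With the offset at the 10th percentile, 336 were higher and 105 lower at 2 log2 units. With it at the 50th percentile, 469 were higher and 347 lower at 1, 65 higher and 9 lower at 2, and 4 lists were higher and 2 lower. No offset gave 425 higher and 141 lower at 2 log2 units, and a floor gave 389 and 133. A common median gave 601 higher and 1297 lower at 1, and 124 and 106 at 2. No filter gave 1557 higher at 1 and 2 higher lists, a filter on the larval mean gave 669 higher at 1, and a filter on all 6 arrays gave 7 higher lists. The mean of a gene's probe sets gave 11 higher and 5 lower lists. Leaving out each EC_pos array in turn gave 932 to 1587 higher and 703 to 1381 lower genes beyond the EC_pos range, against 767 and 562 with all 4; the highest counts, 1587 and 1381, were without array a. Of list medians under the alternatives 638 moved by less than 1 SD of the EC_pos arrays and 82 by more, and of the genes with the largest differences 292 and 128. No paired analysis was possible because each larval fraction has 1 array and EC_pos is a single group. The cause of these changes was not tested. Each larval fraction rests on 1 array, and dim probe sets give only a bound.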

Other observations

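Detoxification and stress families held genes on both sides. Of 44 counted heat shock and chaperone genes 3 were at least 1 log2 unit higher on LB_pos and 3 lower. Each share was 6.82%, against 11.5% higher and 8.38% lower among all counted genes. The list leaned lower, with 31 of 44 below 0 and a median of -0.33. l(2)efl, a small heat shock protein gene, read 3464 on LB_pos and 687 on LB_neg (difference 2.25), whereas CCT4, a subunit of the cytosolic chaperonin, read 3464 on LB_pos and 7141 on LB_neg (difference -1.03). stv, a BAG-domain co-chaperone, read 2924 on LB_pos and 611 on LB_neg (difference 2.16), with 0.00 for its other probe set. Glutathione transferases of the epsilon class stood on both sides, with 299 on LB_pos and 14.8 on LB_neg for GstE3 (difference 2.36) and 82.1 on LB_pos and 591 on LB_neg for GstE11 (difference -2.25), while EC_pos read 1810.2 to 3717 for GstE11.

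Cuticle genes had 15 of 57 counted members at least 1 log2 unit higher on LB_pos and 3 lower, beside the sum of tracheal and epidermal markers of 13803 on LB_pos and 6074 on LB_neg. The part of cells of those types in this difference was not tested. Among nuclear receptors Hr51, a regulator of mushroom body axons, read 716 on LB_pos and 208 on LB_neg (difference 1.56), whereas Eip93F, an ecdysone-induced factor of late larval life, read 40 on LB_pos and 209 on LB_neg (difference -1.49). br, another ecdysone response factor, read 985 on LB_pos and 2404 on LB_neg (difference -1.24), with 0.58 and -0.57 for its other counted probe sets.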
